A study of Drosophila melanogaster with 4 samples.

Results

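The genes examined here carry the juvenile hormone signal of Drosophila melanogaster, namely jhamt of its synthesis, Jhe, Jhedup, Jheh1, Jheh2 and Jheh3 of its breakdown, to (takeout) of the hormone-binding protein family, Met and gce of its receptor, and Kr-h1 of its response. The 10 genes were chosen by name for these roles and not by their values. Earlier results of these data were known when the choice was made. Of the 10, 7 had a probe that names them, and these 7 are among the 10041 genes that could be tested. RNA came from whole wandering larvae of the third instar, staged by blue dye left in the gut. The mutant larvae carried the trithorax alleles trxE3 and trxB11 over one another, were picked by the absence of the Tubby marker, and were compared with isogenic w1118 larvae, whose RNA was a single pool used on every array. There were 4 two-color arrays, from 2 biological replicates of mutant RNA, each hybridized in both dye orientations. The replicates were separate extractions, and separate cultures of larvae are not stated, so a p measures the spread between extractions of mutant RNA and not the spread between wild-type larvae. According to the methods of the study, the isogenic line supplied the X, Y and 2 chromosomes of the mutants. The third chromosome, where trx lies, is not listed there, and on its arms 3L and 3R the alleles and the genetic background cannot be told apart. Of the 7 genes measured, none lies on 3L or 3R, while to lies on 3R.

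Juvenile hormone is a sesquiterpenoid made in the corpora allata, a small part of the larval ring gland. Its precursor comes from the mevalonate pathway, and the methyltransferase encoded by jhamt acts near the end of the synthesis. In target cells the hormone binds the bHLH-PAS proteins Met and gce, which turn on Kr-h1, a zinc finger factor that holds back metamorphosis. An esterase and epoxide hydrolases break the hormone down, and a fall of its level in the last larval instar is part of the passage to the pupa.

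Values were log2 ratios of mutant over wild type, and values above 0 mean more transcript in mutant than in wild-type larvae. Between 11199 and 12775 of the 16416 probes had a value on an array, the others having been removed by the authors' quality filter. Over all probes, the arrays of one replicate correlated at 0.904 and 0.881, and arrays of different replicates between 0.71 and 0.824. The files hold ratios without intensities, so that the level of a transcript, and with it the presence of tissue markers as levels, cannot be given. In whole larvae, fewer cells of a type and less RNA per cell cannot be told apart. The mutated gene itself had ratios of 0.220, 0.130 and 0.279 on arrays 2, 3 and 4, with no value on array 1 (mean 0.21, adjusted p = 0.0859 by limma). The labels do not say whether either allele removes the transcript, so this value does not check the genotype.

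No gene of the hormone's synthesis, receptor or response had an adjusted p under 0.05 between mutant and wild-type larvae. A single breakdown gene did, with a change under 2-fold. Jheh2, which encodes a juvenile hormone epoxide hydrolase, was higher in the mutant by 1.59-fold. The means of the other 6 genes ran from -0.26 to 0.03 on the log2 scale. A gene was called when the Benjamini-Hochberg adjusted p of limma over all genes tested was under 0.05 and the change was at least 2-fold. None of the 7 genes was called, where 4.09% of all genes tested were called, 1.57% higher and 2.52% lower. At an adjusted p under 0.05 with no minimum change, 1 of the 7 passed, Jheh2 with a higher level, where 14.7% of all genes passed, 6.49% higher and 8.18% lower. A count of 1 in 7 is close to that share of all genes. At an unadjusted p under 0.05, 2 of the 7 passed, Jheh2 and Jhe, as did 3833 of the 10041 genes. Over the 7 genes the median log2 change was -0.06, against -0.02 over all genes tested, and their median absolute change was 0.07, against 0.16.

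**Figure D1:**
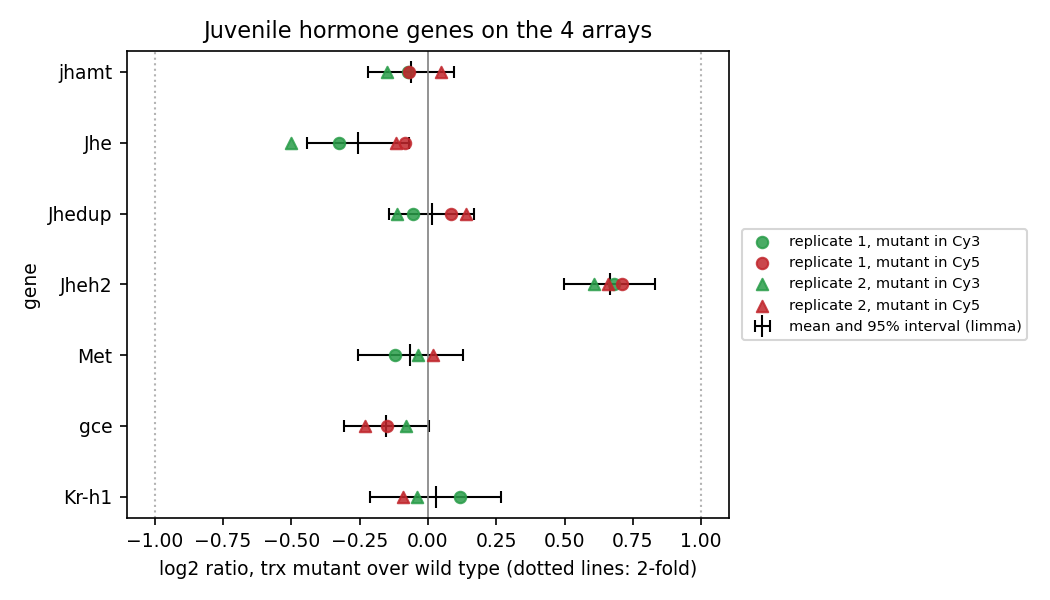
Log2 ratios of *trx* mutant over wild type (x axis) for the 7 juvenile hormone genes with a probe (y axis) on each of the 4 arrays, with the replicate given by the symbol and the dye of the mutant by the color. Black bars are the mean of the 2 replicate means with its 95% interval, and Jheh2 at 0.67 stands apart from the other 6 genes, whose means lie between -0.26 and 0.03.

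jhamt, on chromosome arm 2L, had log2 ratios of -0.072 and -0.070 on the arrays of replicate 1 and of -0.151 and 0.049 on those of replicate 2. The values lie on both sides of 0. The mean was -0.06 (SE 0.0474, n = 2 replicates), with a 95% interval from -0.22 to 0.10 and an adjusted p = 0.411 by limma. On the linear scale this interval runs from 0.86-fold to 1.07-fold.

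Of the breakdown genes, Jheh2, Jhe and Jhedup were measured, and their means differed in sign. Jheh2, on 2R, had log2 ratios of 0.681 and 0.711 in replicate 1 and of 0.609 and 0.660 in replicate 2. All 4 arrays lay above 0, with the lowest value in replicate 2 and the highest in replicate 1. The mean of 0.67 (SE 0.0505, n = 2 replicates) had a 95% interval from 0.50 to 0.83, which is 1.41-fold to 1.78-fold, with an adjusted p = 0.0273 by limma. Its change was above that of 94.8% of all genes tested. The level was higher with the mutant in either dye, at 0.645 over the Cy3 arrays and 0.685 over the Cy5 arrays.

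Jhe, also on 2R, encodes the juvenile hormone esterase. Its log2 ratios were -0.325 and -0.082 in replicate 1 and -0.499 and -0.116 in replicate 2. All 4 values were below 0, and those with the mutant in Cy3 lay lower than those with the mutant in Cy5 in both replicates. The mean was -0.26 (SE 0.0564, n = 2 replicates), with a 95% interval from -0.44 to -0.07 and an adjusted p = 0.0851 by limma, which does not pass. By dye the mean was -0.412 over the Cy3 arrays and -0.099 over the Cy5 arrays. This gap of 0.313 in size was larger than that of 88.7% of all genes, whose median gap was 0.107. With the 4 arrays fitted singly and the replicate as a random block, the change of -0.26 passed, at an adjusted p = 0.0462 by limma. That fit had a correlation of -0.112 within replicates, so it counted the 2 arrays of the same amplified RNA as separate samples. With the 4 arrays as independent samples, Jhe did not pass (adjusted p = 0.0624 by limma).

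Jhedup, a close relative of Jhe that lies next to it, had log2 ratios of -0.056 and 0.085 in replicate 1 and -0.112 and 0.140 in replicate 2. Its values were below 0 with the mutant in Cy3 and above 0 with the mutant in Cy5. The mean over both replicates was 0.01 (SE 0.0471), with a 95% interval from -0.14 to 0.17 and an adjusted p = 0.846 by limma. Direct differences between these genes within an array were not tested. No probe names Jheh1 or Jheh3, and these 2 genes were not analysed here. They flank Jheh2 on the chromosome, so that of this row of 3 hydrolase genes only the middle gene was measured.

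**Figure D2:**
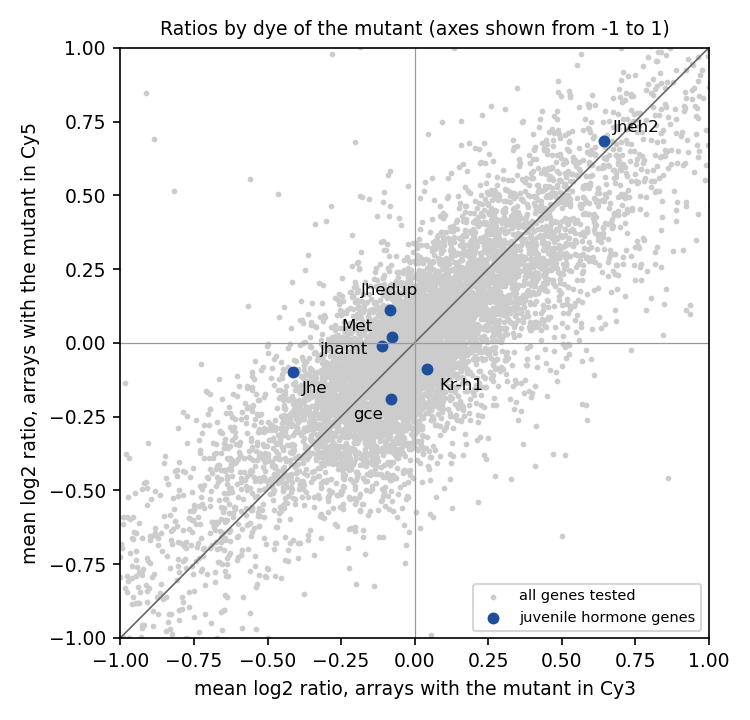
Mean log2 ratio over the arrays with the mutant in Cy5 (y axis) against that over the arrays with the mutant in Cy3 (x axis), with each gene tested in gray and the 7 juvenile hormone genes in blue. On the diagonal the dyes give the same ratio, and Jheh2 lies near it at 0.645 and 0.685, while Jhe lies off it at -0.412 and -0.099.

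The receptor genes lie on the X chromosome. Met had log2 ratios of -0.121 on array 1, with no value on array 2, and of -0.035 and 0.019 in replicate 2. The mean of the replicate means was -0.06 (SE 0.0578), with a 95% interval from -0.26 to 0.13 and an adjusted p = 0.468 by limma. gce had no value on array 1, a log2 ratio of -0.148 on array 2, and ratios of -0.080 and -0.231 in replicate 2. All 3 values of gce were below 0, with a mean of -0.15 (SE 0.0471), a 95% interval from -0.31 to 0.00 and an adjusted p = 0.136 by limma. Whether Met and gce differed from each other was not tested.

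Kr-h1, on 2L, is the response gene that Met and gce control most directly. Its 2 probes gave log2 ratios of 0.119 on array 1, of 0.001 and -0.077 on array 3, and of -0.090 on array 4, and neither had a value on array 2. The values lie on both sides of 0, higher in replicate 1 than in replicate 2. The mean was 0.03 (SE 0.0721, n = 2 replicates), with a 95% interval from -0.21 to 0.27 and an adjusted p = 0.802 by limma.

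Across the 7 genes, 4 had a value on every array and 3 had values on 3 arrays. For 3 genes, Jhe, Jheh2 and gce, every value lay on the same side of 0, where 62.5% of all genes tested kept to one side of 0. The 95% intervals of all 7 genes lay within a 2-fold change in either direction, as did those of 89.2% of all genes tested. Among the 6 genes other than Jheh2, the lowest bound was -0.44 and the highest 0.27.

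**Figure D3:**
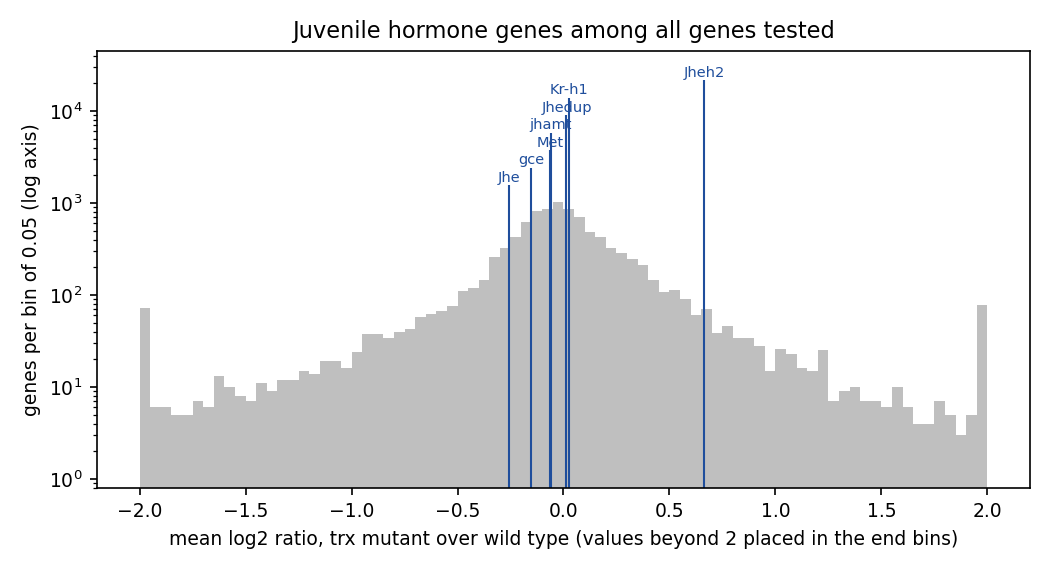
Number of genes (y axis, log scale) by mean log2 ratio of *trx* mutant over wild type (x axis, bins of 0.05) for all 10041 genes tested, with the 7 juvenile hormone genes as blue lines. Of all genes tested, 57.6% changed by less than 0.2, as did the juvenile hormone genes except Jheh2 at 0.67 and Jhe at -0.26.

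The genes with log2 ratios most like those of Jheh2 over the 4 arrays, by the mean absolute difference, were CG5493 on 2R at 0.038, Srx on X at 0.039 and spict on 2L at 0.039. They were chosen among 7261 genes with a value on every array, of which 55 came within 0.1 of Jheh2.

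Of the genes next to the 10 on the chromosome, 17 were tested, 3 of which belong to the 10 themselves. Beside Jheh1, CG18190 had log2 ratios of 0.305, 0.226, 0.261 and 0.289, with an adjusted p = 0.0641 by limma. The next tested gene past Jheh3, with 4 coding genes between, was DptB, which encodes the antibacterial peptide Diptericin B. Its log2 ratios were 0.685 and 0.612 in replicate 1 and 1.771 and 1.873 in replicate 2, so that the replicates stood apart (mean 1.24, adjusted p = 0.121 by limma). Next to Jhe, CG30095 had log2 ratios of -0.255, -0.043 and -0.401 on arrays 1, 2 and 3 (mean -0.28, adjusted p = 0.143 by limma), again lower with the mutant in Cy3. Before Jhedup, Asph had log2 ratios of -0.961, -0.866, -0.387 and -0.360 (mean -0.64, adjusted p = 0.106 by limma). CG5888 beside jhamt averaged 0.29, Kr-h2 beside Kr-h1 averaged 0.22, and CG5877 beside gce averaged -0.24, and none of these 3 passed. The other 6 neighbors outside the 10 genes and outside the takeout family were within 0.2 of 0. A single neighbor was called, Jhbp7, which lies beside to.

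No probe names to, and it was not analysed here. It encodes a secreted protein of the family that holds hemolymph carriers of juvenile hormone in other insects, and in the fly it is known for its link to the clock and to feeding. Of the 21 other genes of this family, 17 were tested. In the mutant 1 was called higher and 5 were called lower, where 1.57% of all genes tested were called higher and 2.52% lower. With no minimum change 1 higher and 9 lower passed, where 6.49% and 8.18% of all genes did. The median log2 change of the 17 was -0.40, against -0.02 over all genes tested. Most of the family is named for its sequence, and which of its members bind juvenile hormone in the fly was not part of these data.

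The largest decrease in the family was that of Jhbp14, with log2 ratios of -2.927, -2.937, -3.202 and -2.560 (mean -2.91, 7.50-fold lower, adjusted p = 0.0142 by limma). Jhbp13 had log2 ratios of -2.229, -2.145 and -1.763, with no value on array 3 (mean -1.98, adjusted p = 0.0250 by limma), and without array 4 it could not be tested. CG16820 had log2 ratios of -1.030, -1.094, -0.888 and -0.679, which passed the p but stayed under 2-fold (mean -0.92, adjusted p = 0.0355 by limma), and without array 3 it no longer passed (adjusted p = 0.0502 by limma). These 3 genes lie side by side on 2L, and every array with a value showed each of them lower in the mutant.

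On 3R, Jhbp3, Jhbp2 and Jhbp1 also lie side by side, and they did not move together. Jhbp2, the middle gene, was higher in the mutant, with log2 ratios of 2.387, 3.614 and 3.005 and no value on array 2 (mean 2.85, 7.20-fold, adjusted p = 0.0338 by limma). Jhbp1 was lower, at -2.268, -1.830, -1.818 and -1.414 (mean -1.83, adjusted p = 0.0272 by limma). Jhbp3 was lower as well, at -0.993, -0.774, -1.277 and -1.087 (mean -1.03, adjusted p = 0.0338 by limma), but its mean fell under 2-fold without array 1 (-0.98) or array 3 (-0.98) and over the Cy5 arrays alone (-0.93), which leaves 4 genes called lower in the family. After quantile normalization between arrays, Jhbp2 at 2.99 was no longer called (adjusted p = 0.0584 by limma), and without array 1 it had no value in replicate 1 and could not be tested.

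Jhbp7, the neighbor of to, had log2 ratios of -1.561, -1.722, -1.666 and -1.290 (mean -1.56, adjusted p = 0.0193 by limma). CG11854, on the other side of to, had a value of 1.934 on array 1 alone and was not tested. Jhbp12, Jhbp16 and CG33306 passed at smaller decreases, with means of -0.47, -0.40 and -0.44. Without array 1 or array 4, Jhbp16 had adjusted p-values of 0.0708 and 0.058 by limma, and CG33306 had 0.0744 and 0.0648, so that neither passed. On 3L and 3R, 12 of the family were tested, with 1 called higher and 3 lower, where 1.66% of the 4335 genes tested on these arms were called higher and 3.37% lower. On the other arms 5 were tested, of which 2 were called lower and all 5 had means below 0, where 1.92% of the 5365 genes tested there were called lower and 52.2% had means below 0.

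**Figure D4:**
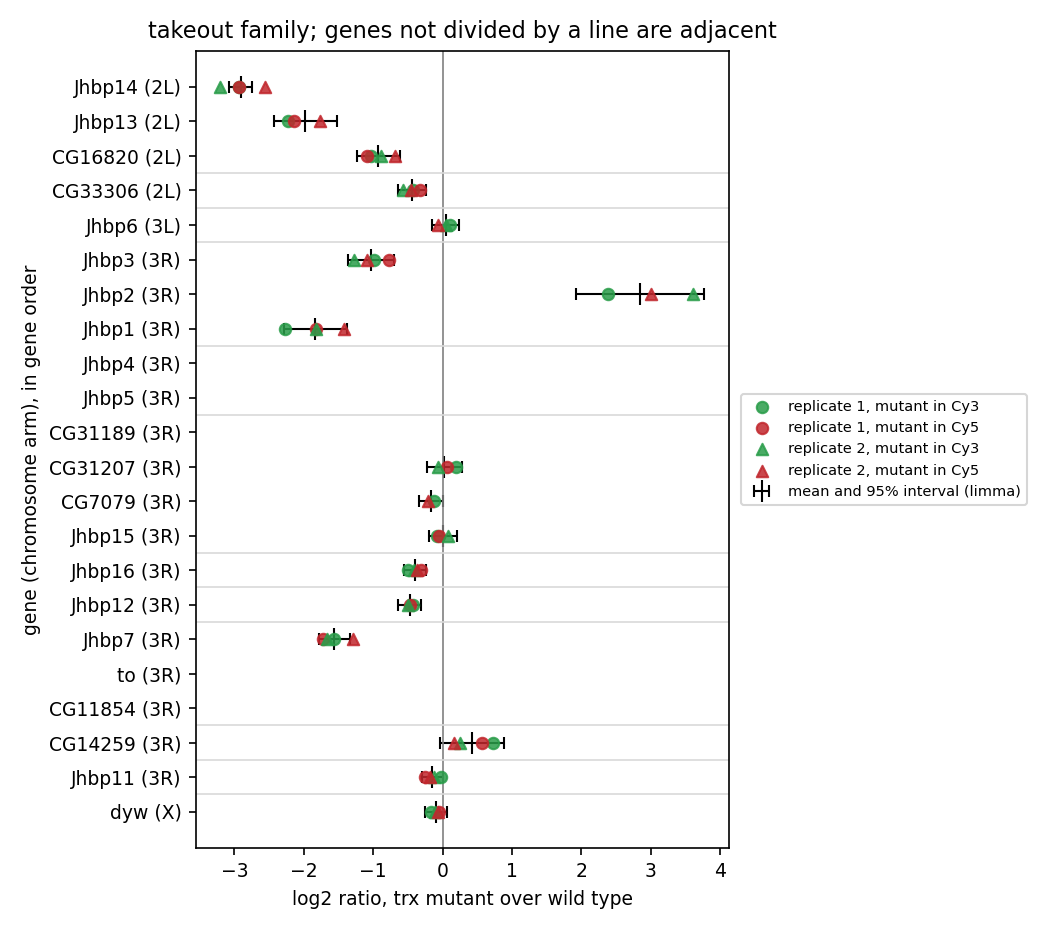
Log2 ratios of *trx* mutant over wild type (x axis) for the takeout family in gene order along each chromosome arm (y axis), with symbols, colors and 95% intervals as in the plot of the 7 genes by array, and rows left empty for genes not tested. The run of Jhbp14, Jhbp13 and CG16820 lies wholly below 0, while Jhbp2 at 2.85 lies between Jhbp3 at -1.03 and Jhbp1 at -1.83.

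No gene on the lists of precursor synthesis, corpora allata control and receptor partners with response factors passed the adjusted p. Of the 7 genes of the mevalonate pathway, 5 were tested and none was called. The largest mean change was that of Pmvk, the phosphomevalonate kinase, at -0.26 (adjusted p = 0.0847 by limma). It was followed by Fpps, the farnesyl diphosphate synthase, at -0.17 (adjusted p = 0.123 by limma). Hmgs averaged 0.08 over 3 probes that disagreed. Of these, 1 had log2 ratios of -0.336, -0.427, -0.204 and -0.612, and another had -0.162, -0.372, 0.712 and 0.598. The last Hmgs probe had 0.529, 0.73 and 0.873 on arrays 1, 3 and 4. With the 4 arrays fitted singly and the replicate as a random block, Pmvk and Fpps passed at adjusted p-values of 0.011 and 0.0179 by limma, both under 2-fold. That fit counted the arrays of the same amplified RNA as separate samples. Of the 4 genes of the allatostatins and their receptors, which restrain the corpora allata in insects, only AstC was tested, with a mean of -0.11 (adjusted p = 0.222 by limma). Of 11 partners of the receptor and factors of the hormone response, 8 were tested and none was called. The largest means there were those of chinmo, a BTB zinc finger gene, at 0.32 (adjusted p = 0.116 by limma), and of br, the pupal specifier broad, at 0.25 (adjusted p = 0.0904 by limma). With the random block, chinmo passed at an adjusted p = 0.0181 by limma. The value of br averages 4 probes with values, which disagreed. Of its probes with a value on every array, 1 had log2 ratios of -0.220, -0.059, -0.028 and -0.249 and the other had 0.136, 0.105, 0.411 and 0.152. Another probe had 0.874, 1.231 and 1.331 on arrays 1, 2 and 3, and the last had 0.009, -0.121 and 0.067 on arrays 1, 3 and 4. The study describes br as up-regulated in trx mutants, whereas the average over its probes did not pass here.

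All 3 genes listed as inducible by juvenile hormone were tested, and none was called. The gene mnd (minidiscs), an amino acid transporter gene, was lower in the mutant, with log2 ratios of -0.508, -0.448, -0.255 and -0.489. Its mean of -0.43, with a 95% interval from -0.61 to -0.24, passed the p but was under 2-fold (adjusted p = 0.0465 by limma). Without array 1 or array 4 it no longer passed, at adjusted p-values of 0.0574 and 0.106 by limma. The gene lies on 3L, where the alleles and the genetic background cannot be told apart. JhI-26 had log2 ratios of 0.041 and 0.194 in replicate 1 and of -0.753 and -0.153 in replicate 2, on both sides of 0 (adjusted p = 0.530 by limma).

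Some markers of hormone-making and hormone-responsive tissues were called in the mutant, where 4.09% of all genes tested were called. Of the markers past the adjusted p, Lsp2 lies on 3L, and Sgs5 and sro lie on 3R. On these arms the alleles and the genetic background cannot be told apart. Of the others, GstE14 lies on 2R and apolpp on 4. Of 7 fat body markers 4 were tested. The storage protein gene Lsp2 had log2 ratios of 3.670, 4.505 and 3.872 on arrays 1, 2 and 3 and was called higher (mean 3.98, 15.8-fold, adjusted p = 0.0142 by limma). Without array 3 it had no value in replicate 2 and could not be tested. The lipoprotein gene apolpp, at -0.61, passed with a decrease under 2-fold (adjusted p = 0.0443 by limma), and no longer did so without array 2 or array 3, at adjusted p-values of 0.156 and 0.0618 by limma. Fbp2 averaged 1.08 and Fbp1 averaged 0.27, and neither passed.

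Of the 6 salivary glue genes, which are on late in the third instar, 3 were tested. The probes of Sgs3, Sgs7 and Sgs8 each name several genes and were left out. The study lists these genes as an up-regulated cluster in the trx mutant. Sgs5 was called higher from its 2 Cy3 arrays, at 4.558 and 3.010 (adjusted p = 0.0431 by limma), and could not be tested without either of them. Sgs4 had a log2 ratio of 1.846 on array 1, against 0.225 and 0.178 in replicate 2, and Sgs1 averaged -0.12, and neither passed. Of 7 ecdysteroid synthesis genes of the prothoracic gland, which shares the ring gland with the corpora allata, 3 were tested. GstE14, the glutathione transferase gene noppera-bo, was called lower, with log2 ratios of -0.987, -1.511, -0.843 and -1.164 (adjusted p = 0.0275 by limma). The other genes tested there had means above 0. Of these, sro (shroud), at 0.65, passed with an increase under 2-fold (adjusted p = 0.0355 by limma). The gene phtm, also named phm, had log2 ratios of 0.012, 0.006, 0.464 and 0.551 and did not pass (mean 0.26, adjusted p = 0.316 by limma). For sad, values of 1.001 and 0.983 stood on arrays 3 and 4 alone, and it was not tested. Without array 1, sro no longer passed (adjusted p = 0.0512 by limma). Without array 2 the mean of GstE14 was -0.99, just under 2-fold. The part of stage and of tissue make-up in the values of the juvenile hormone genes was not tested.

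**Figure D5:**
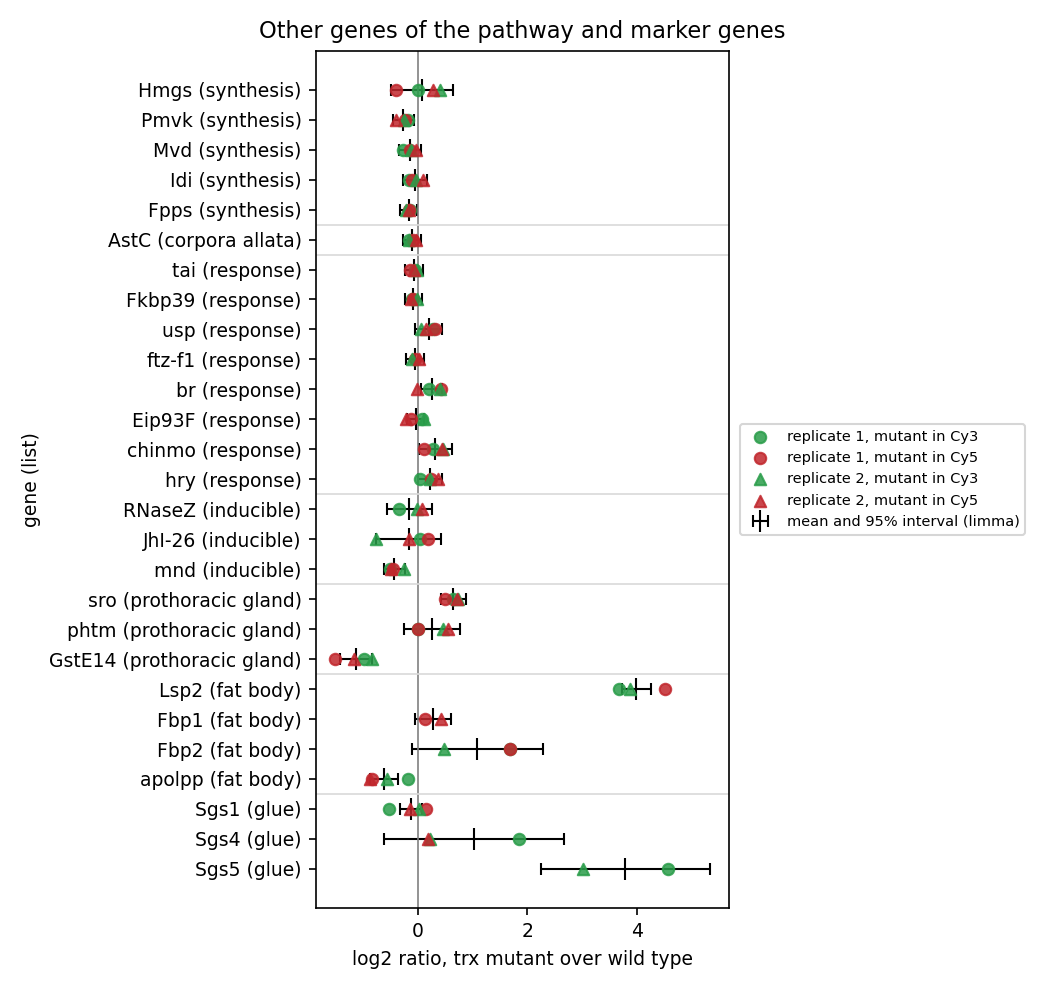
Log2 ratios of *trx* mutant over wild type (x axis) for other genes of the pathway and for tissue markers that could be tested (y axis, with the list in parentheses), with symbols and colors as in the plot of the 7 genes by array. Genes of precursor synthesis and the receptor partners with response factors have means between -0.26 and 0.32, and Lsp2 at 3.98 and Sgs5 at 3.78 lie farthest from it.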

How the data were processed

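Per the labels and the methods of the study, each deposited value is a spot's log2 ratio, mutant over wild type, made by the authors with GenePix Pro 6 (named with limma in the submitters' processing notes), removal of spots under their quality thresholds, normexp background correction, OLIN within arrays and median absolute deviation scaling between arrays. Signs were not changed. They were checked against genes that the study lists by direction, where 232 of 239 and 243 of 245 probes lay on the listed side. Of 16416 probes, 13163 name 1 gene in the platform annotation, 102 name several or none and were left out, and 3151 are not in it. Names were updated through the NCBI gene table (Release 6) for 12673 probes, which also gave arms and gene order, and 490 kept the platform symbol. Probes of a gene and then the arrays of a replicate were averaged, and the 2 replicate means were fitted in limma 3.58.1 (R 4.3.3, prior degrees of freedom 1.80, prior SD 0.083) for 10041 genes with a value in both replicates. For genes with nearly equal replicates the SE rests mostly on this prior. The script was tested on simulated data. The number of arrays limits the precision. The 10 genes, the other lists, and the rule for genes named in the text (the called genes or the 2 largest changes of a list, the nearest tested neighbors, and the 3 most similar profiles) were chosen with earlier results of these data known.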

Additional observations from a re-analysis of the deposited data

How the results depend on the processing

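Jheh2 stayed higher and past the adjusted p under every alternative with a test, at log2 changes of 0.634 to 0.696 and adjusted p-values of 0.000433 to 0.0327 by limma, and no alternative that kept the 2-fold minimum called any of the 7 genes. With no minimum change, 1 of the 7 passed, as did 1 juvenile hormone-inducible gene, 10 of the takeout family (9 lower), 2 fat body markers, 2 prothoracic gland genes and 1473 of all genes. With the 4 arrays fitted singly and the biological replicate block as a random effect, 2 of the 7 passed, since Jhe at -0.255 had an adjusted p of 0.0462. Pmvk, Fpps, chinmo, trx, Fbp2 and the neighbors CG5888, Asph, CG18190, DptB and CG5877 also passed the adjusted p then, as they did with the arrays as independent samples. Kr-h1 under the block changed sign to -0.008, 2 fat body markers and 2 neighbors were called, and the correlation within replicates was -0.112. With the 4 arrays as independent samples, Kr-h1 was at -0.003, and again 2 fat body markers and 2 neighbors were called. With the mutant in Cy3 only, Jhedup turned to -0.084 and 0 prothoracic gland genes were called. With the mutant in Cy5 only, JhI-26 turned to 0.021, and 0 fat body markers, 0 glue genes and 0 takeout family genes were called higher. The same 3 counts were 0 with genes on all 4 arrays, and the takeout family count was 0 after quantile normalization. The probe with values on most arrays (of equal probes, the first in the file) turned br to -0.139, and with it Asph passed at -0.853 (adjusted p = 0.0368 by limma). CG33306 no longer passed after each array's median was subtracted (adjusted p = 0.0513 by limma), nor did mnd and apolpp over the Cy3 arrays alone. With 1 array or replicate left out, Jhedup ran from -0.049 to 0.077. Kr-h1 turned to -0.064 without replicate 1. Without replicate 2, JhI-26 turned to 0.118 and Kr-h2 to -0.077. The counts of called fat body markers (0 without array 3), glue genes (0 without array 1 or 3), prothoracic gland genes (0 without array 2) and higher takeout family genes (0 without array 1) ran from 0 to 1. That of lower takeout family genes ran from 4 to 5. Leaving out a replicate leaves a value with no test. The cause of these shifts was not tested, except that Lsp2, Sgs5 and Jhbp2 lack values on some arrays and then have none in a replicate.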
